A study of Mus musculus with 6 samples.

Results

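The nuclear genes of respiratory complexes II to V were followed in primary macrophages of wild-type mice that met the yeast Candida albicans. The members are the protein-coding genes of the deposited table whose names begin with Uqcr, Atp5 or Cox4 to Cox8, or are Sdha to Sdhd, Cyc1 or Cycs. They make up 50 of the 54532 genes of the table, and were divided into complex II (4 genes), complex III (9), the carrier cytochrome c (1), complex IV (18) and complex V (18). Of the 50 genes, 43 had a mean of at least 1 FPKM (fragments per kilobase of gene, scaled to library size) over the 6 libraries and were tested, a filter that does not look at the groups.

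The cells of 3 libraries had received rmMETRNL for 6 h and those of the other 3 vehicle, and all 6 were then challenged with the yeast for 6 h. The labels give the genotype WT for every sample and do not give the sex or age of the mice, the source of the macrophages or the dose. The treatment is named for METRNL (meteorin-like), a secreted protein. Since every sample was challenged, no unchallenged baseline enters the comparison. Whether the 3 samples of 1 pretreatment were separate cultures or animals is not said, so the spread behind each p may be technical alone. Which columns of the table are rmMETRNL and which are vehicle was read from their short names, and every direction below rests on that reading.

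The respiratory chain passes electrons from metabolic fuels to oxygen and stores the energy as a proton gradient across the inner mitochondrial membrane. Complex II is succinate dehydrogenase, an enzyme shared with the TCA cycle. Complex III hands electrons to cytochrome c, complex IV passes them from cytochrome c to oxygen, and complex V uses the gradient to make ATP. Complex II is encoded by nuclear genes alone, while complexes III, IV and V each combine nuclear subunits with subunits encoded in the mitochondrial genome. Macrophages activated through microbial receptors are known to lean towards glycolysis, and succinate oxidation at complex II is known to take part in their inflammatory signalling.

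Promoters of genes of this kind are known for sites of the transcription factor NRF-1 and of the ETS family, to which the respiratory regulator GABP belongs. RefSeq promoter sequences (GRCm38.p6, 250 bases before to 50 after each start) were matched for 37 of the 49 gene names. A 10-base NRF-1 word, given by the capitals in Atp5k below and reading the same on both strands, was in 4 of the 37 (10.8%), against 1.07% of the 27025 genes in the promoter table. The ETS word CCGGAAG was searched as such and as CTTCCGG and was in 12 of the 37 (32.4%), against 9.93% of all genes. The 27025 genes were not limited to the tested ones, so these shares do not compare genes of like expression. The words do not overlap each other, and a match describes the letters only. The 170 bases before the start of 5 genes are printed 5′ to 3′ on the gene's strand, with these words in capitals. Atp5h, Cox6b1 and Atp5e were chosen as genes with an ETS word whose values lay wholly lower with rmMETRNL, Cox6a1 for holding both words within these bases, and Atp5k for its NRF-1 word and its wide spread between libraries.
Atp5h (chr11:115419920-115420089, minus strand): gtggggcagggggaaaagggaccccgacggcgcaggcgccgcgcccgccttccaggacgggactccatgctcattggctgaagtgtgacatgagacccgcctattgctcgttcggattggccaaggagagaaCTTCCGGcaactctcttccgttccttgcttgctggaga
Cox6b1 (chr7:30626115-30626284, minus strand): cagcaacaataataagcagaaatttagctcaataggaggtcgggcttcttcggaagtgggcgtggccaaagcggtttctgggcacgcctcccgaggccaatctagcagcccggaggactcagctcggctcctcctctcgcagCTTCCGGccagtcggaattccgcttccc
Atp5e (chr2:174464102-174464271, minus strand): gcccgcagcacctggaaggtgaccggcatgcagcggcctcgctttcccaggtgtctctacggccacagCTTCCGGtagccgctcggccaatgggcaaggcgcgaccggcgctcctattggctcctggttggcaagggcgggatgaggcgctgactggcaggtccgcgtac
Cox6a1 (chr5:115348959-115349128, minus strand): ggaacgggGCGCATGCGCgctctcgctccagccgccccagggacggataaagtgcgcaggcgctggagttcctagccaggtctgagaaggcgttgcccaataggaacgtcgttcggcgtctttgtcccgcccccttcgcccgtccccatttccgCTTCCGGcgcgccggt
Atp5k (chr5:108434400-108434569, minus strand): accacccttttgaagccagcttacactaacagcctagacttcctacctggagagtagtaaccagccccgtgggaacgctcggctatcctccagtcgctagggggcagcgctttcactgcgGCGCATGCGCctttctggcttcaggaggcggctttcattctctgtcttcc
Counted from the start, the ETS word began at -38 in Atp5h, -28 in Cox6b1 and -102 in Atp5e. Uqcrq, the member with the smallest p below, had no sequence in the promoter table. Sdha, Uqcrc1, Cox8a, Atp5g3, Atp5b and Atp5d also lay wholly lower with rmMETRNL and held neither word in these 170 bases. Sdhd, Uqcrh, Uqcr11, Atp5j and Cox6a1 held an ETS word there, and their groups overlapped. A link between the words and the differences was not tested.

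The differences between pretreatments were small, and most members leaned the same way. Of the 43 tested members, 36 had a log2 fold change below 0 (rmMETRNL over vehicle, on the log2(FPKM + 1) scale), where 51.6% of all 9867 tested genes did, and the median was -0.12, against -0.0056 over all tested genes. In such bulk libraries, fewer cells of a type and less RNA per cell cannot be told apart. The members' log2 fold changes ran between -0.51 (Atp5k) and 0.36 (Cox7a1). In 12 members the 3 rmMETRNL values lay wholly below the 3 vehicle values (27.9% of the 43, where 10.6% of all tested genes did), and in 0 wholly above (background 10.9%). No member reached an adjusted p of 0.05 or 0.1 in limma, which called 0 of them and 0% of all tested genes, and the smallest among members was 0.189. At an unadjusted p under 0.05 it gave 12 members lower (background 7.13%) and 0 higher (background 7.54%). Voom, a limma method for counts, was run on the whole reads behind the values. It called 1 member, Atp5h, lower and 0 higher, with backgrounds of 0.213% and 0.405%, and gave 19 members lower at an unadjusted p under 0.05 (background 8.29%).

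**Figure D1:**
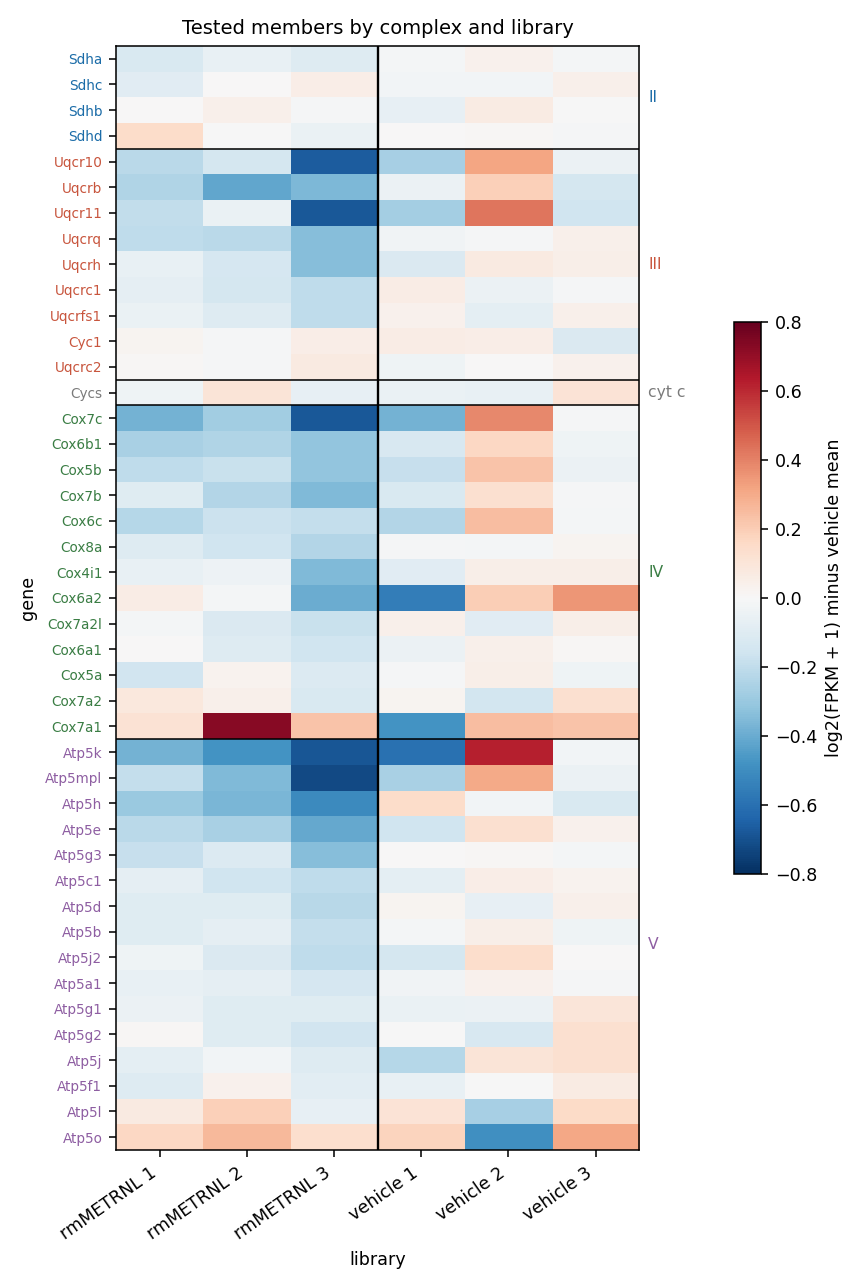
Level of each tested member (rows, by complex) in each library (columns, rmMETRNL left of vehicle), as log2(FPKM + 1) minus the mean of the vehicle libraries. Blue is below and red above that mean; rmMETRNL library 3 holds the lowest value of 28 of the 43 members, and vehicle library 2 the highest value of 22.

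A pair of libraries stood apart in these genes. The lowest of the 6 values was in rmMETRNL library 3 for 28 of 43 members (65.1%), against 22.5% of all tested genes, and the highest was in vehicle library 2 for 22 members (51.2%), against 17.8% of all tested genes. The median deviation of the 43 members from the vehicle mean was -0.08, -0.10 and -0.20 in rmMETRNL libraries 1, 2 and 3 and -0.05, 0.05 and 0.01 in vehicle libraries 1, 2 and 3. Vehicle library 1 therefore lay closer to rmMETRNL library 1 than to vehicle library 2. Without rmMETRNL library 3 the median fold change was -0.08, with 7 members lower at an unadjusted p under 0.05 (background 4.7%). Without vehicle library 2 it was -0.10, with 10 such members (background 5.52%). Without both it was -0.06, and 35 of 43 members were below 0. In this setting 14 lay wholly below the vehicle values (background 21.4%) and 6 had an unadjusted p under 0.05 in limma (background 4.16%). The pair was chosen after seeing the data, for holding the lowest and highest values of many members. Leaving it out moves such members towards 0 by that choice alone, here and below, so it is no check of their stability. The medians of complexes III, IV and V without both were -0.06, -0.07 and -0.09. Libraries held between 13235001 and 18145733 reads (or read pairs), and vehicle library 2 was the shallowest.

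The transcripts of these genes are short. Their median length was 714 bases, against 2466 bases over all tested genes, taking 1 principal coding transcript per gene from GENCODE M21. Across the 43 members the log2 fold change went with transcript length (Pearson r = 0.39, Spearman rho = 0.49, on log2 length for r), a description over genes that share the same 6 libraries. The 16 tested members with a transcript under 600 bases had a median of -0.23, and the 27 with longer transcripts had a median of -0.10. With all 6 libraries, short transcripts of other genes leaned the same way. They were taken as the 150 other tested protein-coding genes under 600 bases, from which other respiratory genes, such as those of complex I, were not removed. The median deviations of this set were -0.05, -0.10 and -0.25 in rmMETRNL libraries 1, 2 and 3. In vehicle libraries 1, 2 and 3 they were -0.07, 0.07 and 0.03. The median fold change of the set was -0.11. Without rmMETRNL library 3 this median was -0.06, and without that library and vehicle library 2 it was -0.02, where the short members had -0.16 and -0.10. The 8332 other protein-coding genes of 600 bases or more had a median of -0.0024. Over all 9860 tested genes with a transcript, the deviation from a gene's mean went with log2 length at r = 0.23 in rmMETRNL library 3 and -0.17 in vehicle library 3, and at -0.08 to 0.05 in the other 4. The part that transcript length or library preparation has in the members' differences was not tested beyond removing trends from each library. With the transcript length trend removed, a step added after seeing the data, 34 of the 43 members were below 0. The medians of complexes III, IV and V were then -0.11, -0.08 and -0.08, against -0.18, -0.15 and -0.12 with the trend kept. With the gene length trend removed, as planned, 33 members were below 0, with medians of -0.14, -0.11 and -0.11. With the transcript GC trend removed, also added after seeing the data, 36 were below 0, with medians of -0.18, -0.11 and -0.10.

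**Figure D2:**
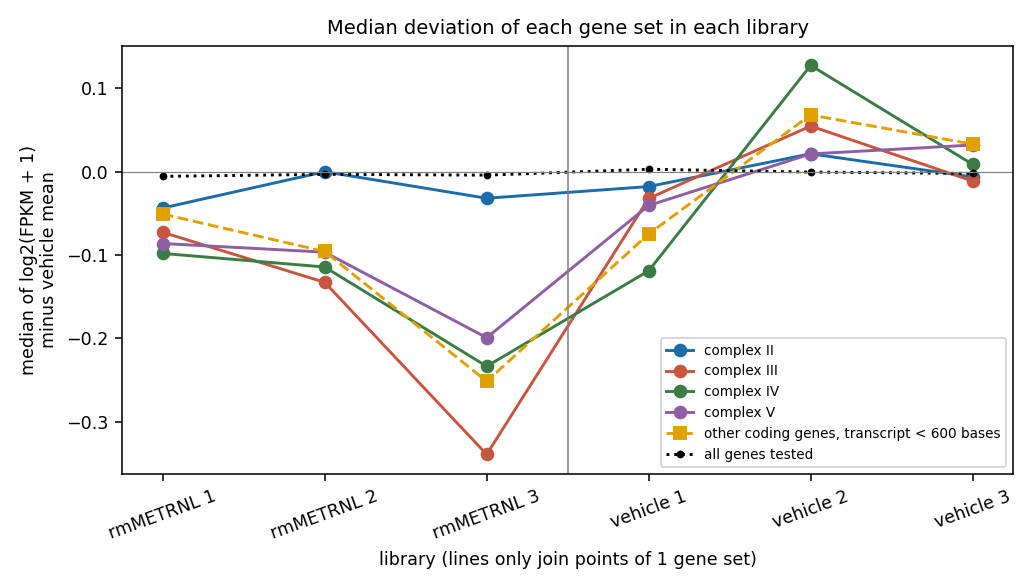
Median over each gene set (y axis) of log2(FPKM + 1) minus the vehicle mean, in each library (x axis, rmMETRNL left of vehicle). Complexes III, IV and V and the other coding genes with transcripts under 600 bases are all lowest in rmMETRNL library 3, at -0.34, -0.23, -0.20 and -0.25, while complex II lies between -0.04 and 0.02 throughout.

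**Figure D3:**
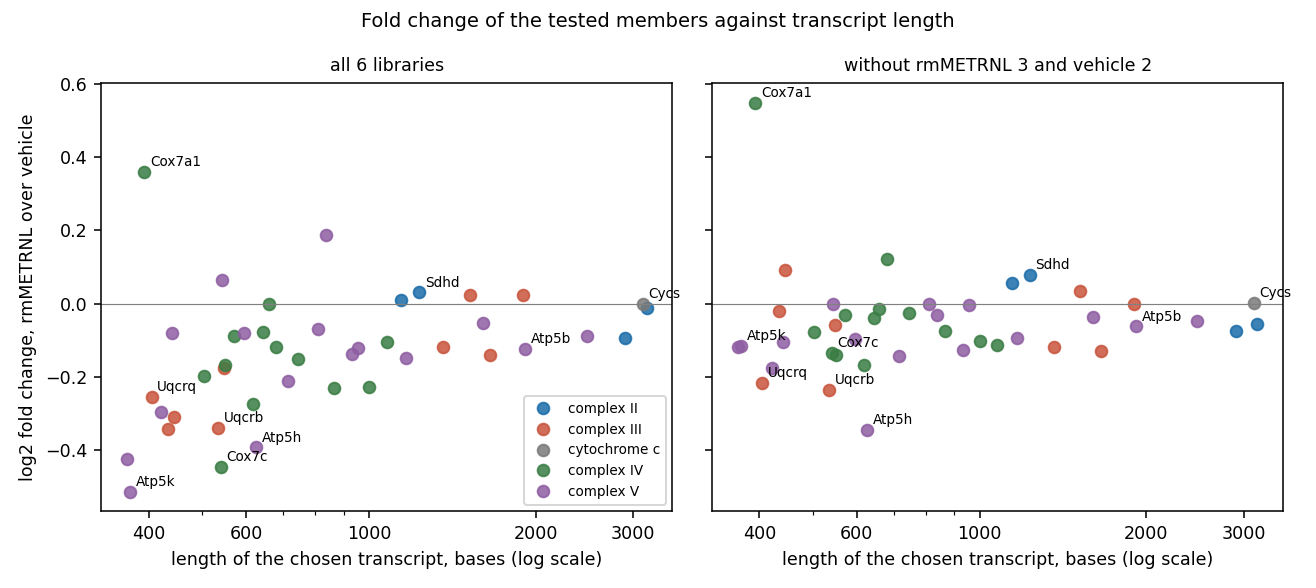
Log2 fold change of rmMETRNL over vehicle (y axis) of each tested member against the length of its chosen transcript (x axis, log scale), coloured by complex, with all 6 libraries (left) and without rmMETRNL library 3 and vehicle library 2 (right). On the left the lowest points are short transcripts such as Atp5k (-0.51) and Cox7c (-0.44), which lie at -0.12 and -0.14 on the right. Atp5h, whose highest value was in vehicle library 1, lies at -0.39 on the left and -0.34 on the right.

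Complex II differed little between pretreatments, with summed levels of 116 ± 2.73 FPKM in rmMETRNL libraries and 117 ± 1.83 FPKM in vehicle libraries (SD, n = 3 each, as for all means below) and 2 of its 4 genes below 0. Sdhd, which encodes a membrane anchor subunit, was the highest on the deposited gene length at 56.0, 50.5 and 48.6 FPKM in rmMETRNL libraries 1, 2 and 3 and 50.6, 50.9 and 50.1 FPKM in vehicle libraries 1, 2 and 3. Its rmMETRNL values lay on both sides of the vehicle values (log2 fold change 0.03, SE 0.06). Sdhb, the gene of the iron-sulfur subunit, stood at 27.3, 28.1 and 27.0 FPKM with rmMETRNL and 26.0, 28.6 and 27.2 FPKM with vehicle, and the groups overlapped. Sdhc, the gene of the other anchor, had 17.1, 18.3 and 19.0 FPKM with rmMETRNL and 18.0, 18.0 and 18.8 FPKM with vehicle, also overlapping. Sdha, the gene of the flavoprotein that oxidises succinate (ENSMUSG00000021577, chromosome 13, 74322254 to 74350280, GRCm38), was the 1 member of the complex without overlap. It had 18.8, 19.6 and 19.0 FPKM with rmMETRNL and 20.2, 20.96 and 20.2 FPKM with vehicle. The log2 fold change was -0.09 (SE 0.04), with an adjusted p of 0.387 in limma. The transcripts of these 4 genes are the longest of the 4 complexes, with a median of 2066 bases.

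Complex III had summed levels of 408 ± 29.4 FPKM in rmMETRNL libraries and 473 ± 31.1 FPKM in vehicle libraries, and 7 of its 9 genes had a log2 fold change below 0 (median -0.18). Uqcrq, which encodes a small subunit beside cytochrome b (ENSMUSG00000044894, chromosome 11, 53427922 to 53430831, GRCm38), had the smallest p of all members. It stood at 77.8, 76.9 and 70.6 FPKM with rmMETRNL and 87.7, 88.9 and 92.3 FPKM with vehicle. Its log2 fold change was -0.25 (SE 0.05), and its adjusted p was 0.189 in limma and 0.0567 in voom. All 3 rmMETRNL values were lower than every vehicle value, and the fold change was -0.22 without rmMETRNL library 3 and vehicle library 2. Uqcrb, the gene of another small subunit, had 51.2, 45.3 and 47.2 FPKM with rmMETRNL and 58.9, 69.3 and 54.9 FPKM with vehicle, again without overlap (log2 fold change -0.34, SE 0.09). Transcripts of other genes hold 54.3% of its 31-base words, which makes its value uncertain.

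The catalytic and core genes of complex III differed less. Uqcrc1, which encodes a core protein, had 23.8, 22.7 and 21.6 FPKM with rmMETRNL and 26.1, 24.2 and 24.8 FPKM with vehicle, without overlap (log2 fold change -0.14, SE 0.05). Uqcrfs1, the gene of the Rieske iron-sulfur protein, had 79.8, 77.0 and 71.8 FPKM with rmMETRNL and 84.9, 78.4 and 85.3 FPKM with vehicle, and the groups overlapped (log2 fold change -0.12, SE 0.06). Cyc1, the gene of the cytochrome that hands electrons on, and Uqcrc2, the gene of the other core protein, had log2 fold changes of 0.02 each. The hinge protein gene Uqcrh had -0.18, and -0.10 without rmMETRNL library 3. For the small subunit genes Uqcr10 and Uqcr11 the fold changes were -0.34 and -0.31 with SEs of 0.19 and 0.23, and the vehicle libraries ranged between 54.1 and 81.7 FPKM for Uqcr10 and between 33.1 and 54.4 FPKM for Uqcr11. Without rmMETRNL library 3 and vehicle library 2 these became -0.02 and 0.09, Uqcrh was -0.06, Uqcrb -0.24, Uqcrc1 -0.13 and Uqcrfs1 -0.12. Cycs, the gene of cytochrome c itself, did not lean either way, at 21.7, 24.0 and 21.3 FPKM with rmMETRNL and 21.5, 21.4 and 24.2 FPKM with vehicle (log2 fold change -0.00097, SE 0.07).

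**Figure D4:**
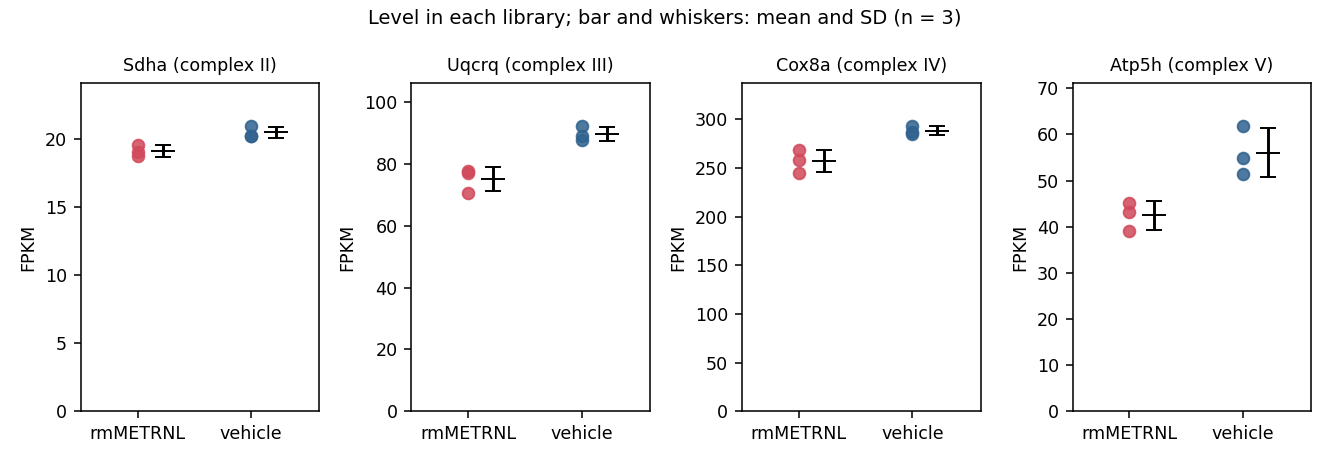
FPKM (y axis, starting at 0) of the member with the smallest p in each of complexes II to V, with a point for each library and the mean and SD beside it (n = 3), rmMETRNL left of vehicle. In each of Sdha, Uqcrq, Cox8a and Atp5h the 3 rmMETRNL points lie below all 3 vehicle points.

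Complex IV had summed levels of 1172 ± 72.1 FPKM in rmMETRNL libraries and 1315 ± 61.2 FPKM in vehicle libraries, and 12 of its 13 tested genes had a log2 fold change below 0 (median -0.15). Cox8a, the ubiquitous form of a small membrane subunit and the highest member on the deposited gene length (ENSMUSG00000035885, chromosome 19, 7215158 to 7217616, GRCm38), had 268, 258 and 245 FPKM with rmMETRNL and 287, 285 and 293 FPKM with vehicle. The groups did not overlap (log2 fold change -0.17, SE 0.05, adjusted p = 0.240 in limma), and the fold change was -0.14 without rmMETRNL library 3 and vehicle library 2. Cox6b1, which encodes a subunit on the intermembrane side, had 120, 122 and 116 FPKM with rmMETRNL and 131, 162 and 140 FPKM with vehicle (log2 fold change -0.27, SE 0.08). Its groups did not overlap, and vehicle library 2 held the highest value.

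In the other complex IV genes the groups overlapped. Cox7b, the gene of a small structural subunit, had 51.0, 46.3 and 42.5 FPKM with rmMETRNL and 50.2, 59.8 and 54.3 FPKM with vehicle (log2 fold change -0.23, SE 0.09). Cox7c, the gene of another small subunit, had 57.5, 61.8 and 46.6 FPKM with rmMETRNL and 57.5, 98.5 and 74.8 FPKM with vehicle (log2 fold change -0.44, SE 0.20), and vehicle library 1 was level with rmMETRNL library 1. The fold change was -0.25 without vehicle library 2, and 55.7% of the gene's words occur in other genes. Cox4i1 and Cox5a encode subunits that join the enzyme early in its assembly, Cox5b a zinc-binding subunit, and Cox7a2l a factor known for assembling supercomplexes. The log2 fold changes of these 4 genes, Cox6a1, Cox6c and Cox7a2 lay between -0.23 and -0.0017. Without rmMETRNL library 3 and vehicle library 2, Cox6b1 had -0.17, Cox7b -0.10, Cox7c -0.14, Cox5b -0.07, Cox6c -0.08, Cox4i1 -0.03, Cox6a1 -0.03 and Cox5a -0.04. The values of Cox7a2l and Cox7a2 were -0.11 and -0.01, against -0.10 and -0.0017 with all 6 libraries. In both genes vehicle library 2 held the lowest vehicle value, at 122.7 and 56.6 FPKM, so leaving it out raised their vehicle mean.

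For subunits with isoforms, the macrophages carried the ubiquitous form and little or none of the muscle, lung or testis form. Cox4i1 averaged 197 ± 22.99 FPKM with rmMETRNL and 217 ± 11.9 FPKM with vehicle, while the lung isoform gene Cox4i2 averaged 0.772 ± 0.207 FPKM with rmMETRNL and 0.587 ± 0.190 FPKM with vehicle. Cox6a1 averaged 221 ± 13.1 and Cox6a2, the heart and skeletal muscle form, 3.02 ± 0.650 FPKM with rmMETRNL, against 235 ± 6.92 and 3.47 ± 1.36 FPKM with vehicle. Cox7a1, another muscle form, had 12, 23 and 13 reads in rmMETRNL libraries 1, 2 and 3 and 5, 12 and 16 reads in vehicle libraries 1, 2 and 3, so its fold change of 0.36 (SE 0.25) rests on few reads. The testis form Cox6b2 had 2 to 5 reads per rmMETRNL library and 0 to 5 per vehicle library. The muscle form Cox8b had 0 reads in every rmMETRNL library and 2, 0 and 0 in vehicle libraries 1, 2 and 3. The testis forms Cox7b2 and Cox8c had 0 reads in all 6 libraries.

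Complex V had summed levels of 734 ± 37.7 FPKM in rmMETRNL libraries and 827 ± 32.01 FPKM in vehicle libraries, and 14 of its 16 tested genes had a log2 fold change below 0 (median -0.12). In 6 of its 16 tested genes the rmMETRNL values lay wholly below the vehicle values (background 10.6%). The counts were 1 of 4 in complex II, 3 of 9 in complex III and 2 of 13 in complex IV. Atp5h, which encodes a subunit of the peripheral stalk that holds the catalytic head still (ENSMUSG00000034566, chromosome 11, 115415689 to 115419962, GRCm38), had 45.2, 43.1 and 39.0 FPKM with rmMETRNL and 61.9, 55.0 and 51.3 FPKM with vehicle. Every rmMETRNL value was lower than every vehicle value. Its log2 fold change was -0.39 (SE 0.08), and its adjusted p was 0.197 in limma and 0.0446 in voom. It was -0.34 without rmMETRNL library 3 and vehicle library 2. The gene shares 60.8% of its words with transcripts of other genes, so reads may have been divided between copies. Of the 43 tested members, 19 share over 10% of their words in this way.

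Genes of F1, the part of the enzyme that includes the catalytic head, followed. Atp5e, the epsilon subunit gene, had 47.6, 46.0 and 41.4 FPKM with rmMETRNL and 49.3, 60.5 and 56.7 FPKM with vehicle, without overlap (log2 fold change -0.29, SE 0.09). Atp5b, the gene of the catalytic beta subunit and the highest of the complex, had 155, 157 and 145 FPKM with rmMETRNL and 164, 171 and 162 FPKM with vehicle, without overlap (log2 fold change -0.12, SE 0.05, adjusted p = 0.326 in limma). Atp5c1, the gamma subunit gene, had 56.7, 53.3 and 51.7 FPKM with rmMETRNL and 56.5, 61.9 and 61.0 FPKM with vehicle, with rmMETRNL library 1 above vehicle library 1 (log2 fold change -0.15, SE 0.06). The delta and alpha subunit genes Atp5d (-0.14) and Atp5a1 (-0.09) had groups without overlap. Without rmMETRNL library 3 and vehicle library 2, Atp5e had -0.17, Atp5b -0.06, Atp5c1 -0.09, Atp5d -0.13 and Atp5a1 -0.05.

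The c ring of the membrane rotor is encoded by the genes Atp5g1, Atp5g2 and Atp5g3, whose mature products are known to be identical. Atp5g3 had 38.7, 40.8 and 34.5 FPKM with rmMETRNL and 44.2, 44.4 and 43.6 FPKM with vehicle, without overlap (log2 fold change -0.21, SE 0.07, and -0.14 without rmMETRNL library 3 and vehicle library 2). Atp5g2 averaged 41.8 ± 2.52 FPKM with rmMETRNL and 44.3 ± 3.93 FPKM with vehicle, and Atp5g1 averaged 6.86 ± 0.152 FPKM with rmMETRNL and 7.32 ± 0.508 FPKM with vehicle. Both overlapped between groups, and 100% of the words of Atp5g2 and 67.3% of those of Atp5g1 occur in other genes. The membrane subunit genes Atp5k and Atp5mpl varied widely among libraries. Atp5k, chosen for this after its values were seen, had 29.8, 27.7 and 23.9 FPKM with rmMETRNL and 25.4, 60.5 and 38.3 FPKM with vehicle, and its log2 fold change of -0.51 (SE 0.28) was -0.20 without vehicle library 2. Atp5mpl had a log2 fold change of -0.42 (SE 0.18), and -0.12 without rmMETRNL library 3 and vehicle library 2.

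The remaining complex V genes gave log2 fold changes of -0.12 for the membrane subunit gene Atp5j2, -0.07 and -0.05 for the peripheral stalk genes Atp5j and Atp5f1, and values above 0 for Atp5l (0.06), a membrane subunit gene, and Atp5o (0.19). Without rmMETRNL library 3 and vehicle library 2 Atp5j2 had -0.0049, Atp5j -0.0010, Atp5f1 -0.04, Atp5l -0.0019 and Atp5o -0.03. Atp5o, the gene of the stalk subunit that binds the head, was uneven among vehicle libraries, with an SD of 4.41 FPKM around a mean of 15.3 FPKM. It had 17.0, 10.3 and 18.7 FPKM in vehicle libraries 1, 2 and 3. Atp5l was also lowest in vehicle library 2, at 8.36 FPKM. Without that library alone the fold changes were -0.06 for Atp5o and -0.07 for Atp5l. Atp5o is listed in a second row with 0 reads in every library, a gene model that shares exon bases with the first. Reads in bases that such models share cannot be told apart. Other gene models cover 12.3% of the first row's exon bases on the same strand and 35.6% on the other strand. They hold 46.4% of its 31-base words. Atp5s, which encodes coupling factor B, is a gene of the name pattern that is no subunit of the enzyme, and had 9 to 12 reads per rmMETRNL library and 4 to 30 per vehicle library.

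Per length of the chosen transcript instead of the deposited gene length, which joins the exons of all transcripts, the order of genes was different. Cox4i1 was then the highest member, at 409 FPKM with rmMETRNL and 452 FPKM with vehicle, followed by Uqcrq (339 FPKM with rmMETRNL and 405 FPKM with vehicle) and Atp5b (337 FPKM with rmMETRNL and 366 FPKM with vehicle). Cox6c, at 19.6 FPKM with rmMETRNL and 22.8 FPKM with vehicle on the deposited length, stood at 139 FPKM with rmMETRNL and 162 FPKM with vehicle on that scale. Sdhc was the lowest of the tested subunits on that scale outside the tissue isoforms, at 18.6 FPKM with rmMETRNL and 18.7 FPKM with vehicle. The ratio between groups is the same on either length.

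Other genes of the pathway were set beside the members. The nuclear subunits of complex I, which takes electrons from NADH, had 32 of 35 tested genes below 0 (background 51.6%; median -0.13), with 10 wholly below the vehicle values (background 10.6%) and 0 called. Ndufv1, which encodes the NADH-binding subunit, had 19.8, 19.7 and 17.6 FPKM with rmMETRNL and 23.4, 23.2 and 22.6 FPKM with vehicle (log2 fold change -0.27, SE 0.06, adjusted p = 0.199 in limma). Ndufv3, the gene of an accessory subunit of the same arm, had 13.6, 12.8 and 12.2 FPKM with rmMETRNL and 14.7, 15.4 and 14.8 FPKM with vehicle. These genes had a median transcript length of 861 bases, and their median deviation was also lowest in rmMETRNL library 3, at -0.24. Without that library and vehicle library 2 the median fold change was -0.07. Ndufa4, kept in this list by its name and now known as a complex IV subunit, averaged 12.1 ± 1.37 FPKM with rmMETRNL and 13.1 ± 1.82 FPKM with vehicle. TCA cycle genes had 11 of 13 tested genes below 0 (median -0.05) with 6 wholly below (background 10.6%) and 0 called, led by the isocitrate dehydrogenase genes Idh3b (-0.26) and Idh3g (-0.20). The TCA cycle genes had a median transcript length of 2403 bases. Their median deviation was also lowest in rmMETRNL library 3, at -0.11. Without that library and vehicle library 2 their median fold change was -0.06.

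The subunits encoded in the mitochondrial genome did not lean the same way, with 5 of 12 tested genes below 0 (background 51.6%), a median of 0.07 and 0 called. The median was -0.05 without rmMETRNL library 3 and vehicle library 2. Of the 12, 1 lay wholly below the vehicle values (background 10.6%) and 1 wholly above (background 10.9%), counts near those backgrounds. Words shared with other genes were not counted for these genes, and their levels ranged widely, so the lower values are uncertain. In complex III, mt-Cytb, the cytochrome b gene, averaged 1365 ± 73.4 FPKM with rmMETRNL and 1324 ± 129 FPKM with vehicle. In complex IV, mt-Co1, the gene of the catalytic subunit, averaged 5081 ± 208 FPKM with rmMETRNL and 5246 ± 438 FPKM with vehicle. The gene mt-Co3 had 25.3, 26.0 and 22.2 FPKM with rmMETRNL and 29.7, 26.2 and 27.9 FPKM with vehicle, without overlap (log2 fold change -0.18, SE 0.08). The complex I gene mt-Nd3 lay wholly above, at 13.7, 16.3 and 14.5 FPKM with rmMETRNL and 11.9, 4.08 and 12.5 FPKM with vehicle (log2 fold change 0.72, SE 0.36). The complex I gene mt-Nd4l had 5.63, 7.51 and 9.54 FPKM with rmMETRNL and 5.78, 5.54 and 4.07 FPKM with vehicle. In complex V, mt-Atp6 averaged 31.8 ± 7.05 FPKM with rmMETRNL and 36.9 ± 14.3 FPKM with vehicle, with overlap.

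Assembly factors of complexes II to V had 18 of 31 tested genes below 0 (median -0.04), with 4 wholly below (background 10.6%), 2 wholly above (background 10.9%) and 0 called, counts near those backgrounds. Lrpprc, which stabilises mitochondrial mRNAs, had 5.50, 5.42 and 5.41 FPKM with rmMETRNL and 4.41, 4.45 and 4.64 FPKM with vehicle (log2 fold change 0.23, SE 0.05, adjusted p = 0.216 in limma). Coa3, an early assembly factor of complex IV, had 14.4, 16.8 and 14.8 FPKM with rmMETRNL and 19.5, 20.5 and 17.2 FPKM with vehicle (log2 fold change -0.30, SE 0.08). Regulators of mitochondrial gene expression had 6 of 12 tested genes below 0 and 0 called, with Polrmt, the mitochondrial RNA polymerase gene, at -0.21 and the transcription factor gene Yy1 at 0.14. Ppargc1a, the gene of a coactivator of mitochondrial biogenesis, had at most 0.010 FPKM in any rmMETRNL library and 0.023 FPKM in any vehicle library.

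The libraries carried macrophage transcripts, with 8 of 8 macrophage markers at a mean of at least 1 FPKM and summed levels of 9381 to 9667 FPKM with rmMETRNL and 9613 to 10159 FPKM with vehicle. Neutrophil markers had 3 of 6 at that level and summed to 122 to 130 FPKM with rmMETRNL and 112 to 119 FPKM with vehicle, with Elane at 0. B cell markers (2 of 4) summed to 16.3 to 18.2 FPKM with rmMETRNL and 14.9 to 20.1 FPKM with vehicle. Fibroblast markers (3 of 5) summed to 7.69 to 8.54 FPKM with rmMETRNL and 7.83 to 8.23 FPKM with vehicle. T cell markers summed to at most 3.61 FPKM in any library, mesothelial and epithelial markers to at most 1.43, and muscle markers to at most 0.150, with Myh6 at 0. The extraction text speaks of retinas, and retina markers summed to at most 0.855 FPKM in any library. The part of any of these cell types in the members' differences was not tested.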

How the data were processed

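RNA-seq of 6 samples was analysed from 1 deposited table of FPKM values for 54532 genes, which the authors scaled per kilobase of a gene length given in the same table. The builds GRCm38 and mm10 are named in the submitters' processing notes. The sources used here do not give the aligner, counter, annotation or strand setting. Gene starts and ends equalled GENCODE M21 for 53585 of 54495 genes matched by ID. Multiplying values by length gave whole reads (100% of values, tolerance 0.05 reads), 13235001 to 18145733 per library. No interval for counting error was added.

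The 9867 genes that averaged 1 FPKM or more were fitted with limma 3.58.1 in R 4.3.3 on log2(FPKM + 1), with the mean-variance trend, two-sided, with Benjamini-Hochberg adjustment over these 9867 and a threshold of 0.05. This scale understates fold changes of low genes. The fit was run on simulated data as a check, which required calls only at folds far larger than those of the members, and few false calls. The members and lists were chosen with earlier results of these data known, so no p was adjusted over members alone and lists are given as counts and medians. Values in every library are given for up to 4 members per complex with the smallest p and the highest member, and every member is named. The share of 31-base words found in other genes and transcript lengths come from 1 principal coding transcript per gene of GENCODE M21. Promoters are RefSeq sequences matched by symbol or synonym. Alternatives were voom, other filters, pseudocounts and scalings, removal of length and GC trends, the replicate number as a block, and leaving out libraries.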

Additional observations from a re-analysis of the deposited data

How the results depend on the processing

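In limma on log2(FPKM + 1) 0 genes were called at an adjusted p of 0.05, and this count was 5 with no filter on low values, 1 on the TPM scale, 61 with voom on the recovered reads, 6 among protein-coding genes and 1 with the GC trend removed, the last 1 chosen after seeing the data. The count of members called was 1 with voom and 0 in every other setting run, an adjusted p of 0.1 included. The 12 members lower at an unadjusted p under 0.05 were 7 without the mean-variance trend, 19 with voom, 6 without rmMETRNL library 3 and vehicle library 2, and 7 to 18 when 1 library was left out, with 7 without rmMETRNL library 3 or vehicle library 3 and 18 without vehicle library 1. Same-numbered libraries did not deviate together (correlations of -0.0212, 0.0074 and -0.0454), and none of the 6 correlated best with its own number. With 3 libraries per group, this cannot settle whether the numbers pair the samples. With the replicate block 11 members were lower, and with the gene length trend removed together with the block 1 member was higher, against 0. The 12 members wholly below the vehicle values (background 10.6%) were 12 to 27 when 1 library was left out (backgrounds 15% to 16.9%). They were 20 without rmMETRNL library 1 (background 16.9%) and 27 without vehicle library 1 (background 16.6%). Without rmMETRNL library 3 and vehicle library 2 they were 14 (background 21.4%). The median of complex III, -0.18, was -0.058 without rmMETRNL library 3 and vehicle library 2 and -0.24 to -0.11 when 1 library was left out. The medians of complexes III, IV and V were -0.11, -0.07 and -0.08 without rmMETRNL library 3, and -0.13, -0.15 and -0.14 without members that share over 10% of their words. Of 18 named members, 4 with fold changes near 0 turned direction in some setting. Leaving out 1 library, or rmMETRNL library 3 and vehicle library 2 together, gave -0.027 to 0.078 for Sdhd, -0.022 to 0.056 for Sdhb (with -0.0044 without rmMETRNL library 2), -0.054 to 0.028 for Sdhc (with 0.0082 without vehicle library 3) and -0.052 to 0.055 for Cycs (with 0.017 and 0.032 without rmMETRNL library 1 and 3, and 0.0027 without the pair). On the TPM scale Sdhc was 0.0092 and Cycs 0.020. With the gene length trend removed, with and without the block, Sdhc was 0.0045 and Cycs 0.012, and with the transcript length trend removed neither turned. Cycs was 0.0012 with median-of-ratios scaling. The other 14 kept their direction in every setting run, and Atp5h passed the threshold in voom. The causes were not tested.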
